A study of Mus musculus with 58 samples.

Results

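The comparison described here is SB239063 against vehicle in mice that received sham procedures and no head injury. It asks what the drug itself did to the cortical transcriptome. The 19 sham libraries, of 58 in the series, were taken by their labels: 5 from mice given SB239063 (3 females and 2 males) and 14 from mice given saline vehicle (9 females and 5 males). All were C57BL/6J mice aged 2 to 4 months that underwent 5 sham procedures, 1 a day, each followed after 30 min by an intraperitoneal injection of 20 mg/kg SB239063 or of saline. Somatosensory cortex of the chronic time point was sequenced, which the design places about 18 and 34 days after the last procedure without saying which mouse belongs to which day. The other 39 libraries came from mice with 5 closed head injuries, 19 given SB239063 and 20 given vehicle, and entered the model to estimate the cohort levels and the spread. The drug had therefore last been given weeks before the tissue was taken. The labels do not say in so many words that each library is a separate mouse, so p-values measure the spread between these samples.

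SB239063 is a small molecule that competes with ATP in the p38 alpha and p38 beta mitogen-activated protein kinases, which are encoded by Mapk14 and Mapk11. Stress and cytokine receptors act through upstream kinases such as those encoded by Map3k5 and Map2k3 on p38, and p38 in turn phosphorylates kinases such as MK2 (Mapkapk2) and transcription factors such as ATF2 and the MEF2 family. Dual-specificity phosphatases, of which Dusp1 is the best known, switch the cascade off. In the brain, p38 is studied above all in microglia, where it promotes the production of inflammatory cytokines. The kinase is controlled by phosphorylation, which transcript counts do not measure.

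Mice came from 4 cohorts of each sex, and the sham SB mice stood in cohorts F1 (females 2 and 3), F2 (female 1), M1 (male 2) and M2 (male 1). These cohorts held 5 sham vehicle mice: females 2 and 9 in F1, female 1 in F2, male 4 in M1 and male 3 in M2. Totals over the 9636 genes of the table ran from 35410100 to 46083400 counts in the SB libraries and from 30605694 to 49158277 in the vehicle libraries. The cortical markers Cux2 and Camk2a were present in every library. Levels are given as CPM, the counts scaled to the size of each library with TMM factors. A length score, the mean log2 CPM of the 1910 genes of longest transcripts (at least 2868 bases) minus that of the 1912 of shortest (at most 758 bases), set some libraries apart. In 6 of the 58 libraries it lay more than 0.140 from the cohort median, and these were 4 of the 14 sham vehicle libraries, none of the 5 sham SB libraries and 2 libraries of injured vehicle mice. The 4 were females 1 and 7 and males 2 and 4. Female 1 and male 4 are the sole sham vehicle libraries of cohorts F2 and M1. Both had more RNA of short genes than the SB mouse beside them, with length scores of 0.0928 against 0.408 in F2 and 0.173 against 0.475 in M1. Values without these 6 libraries stand beside many of the results that moved without them, and their part in the results was not otherwise tested. That fit holds no sham vehicle library of F2 or M1. The SB mice of these cohorts are then compared with sham vehicle mice of other cohorts, through cohort levels that rest on injured mice.

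**Figure D1:**
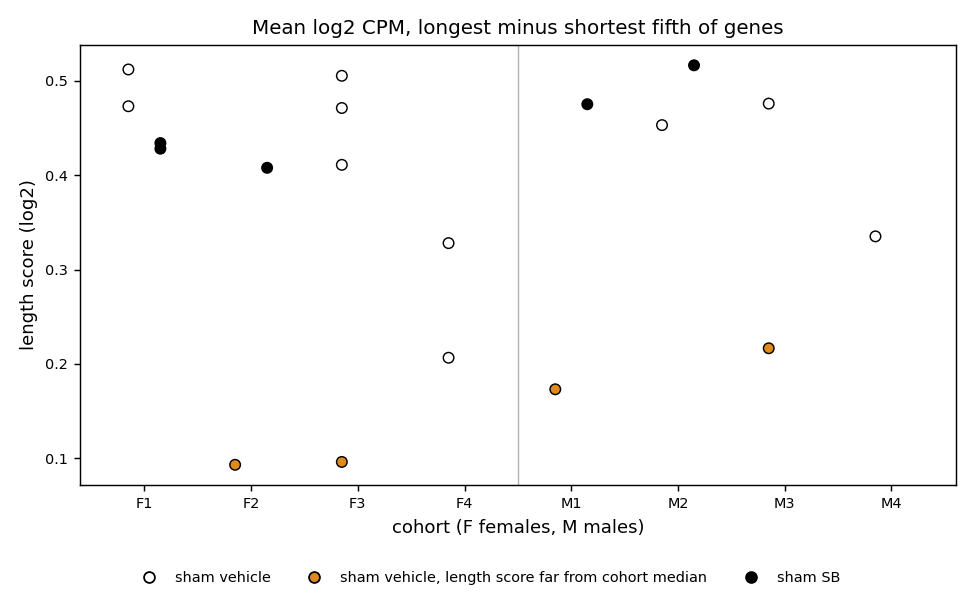
Length score (mean log2 CPM of genes with long transcripts minus that of genes with short ones, y axis) of the 19 sham libraries by cohort (x axis). Filled black points are SB, open points vehicle, and orange points the 4 vehicle libraries far from their cohort median, which lie between 0.0928 and 0.216. The 5 SB libraries lie between 0.408 and 0.517. Open points of F4 (0.206 and 0.328) and M4 (0.335), cohorts without a sham SB mouse, also lie below the SB libraries.

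No gene passed the test. Over both sexes, 0 of 9636 genes (0%) had an adjusted p under 0.05 in edgeR's quasi-likelihood test with Benjamini-Hochberg adjustment, and the smallest adjusted p was 0.677. At an unadjusted p under 0.05 there were 676 genes, 341 of them higher with SB (3.54%) and 335 lower (3.48%). DESeq2 called 0 genes and had 703 at an unadjusted p under 0.05. limma voom called 0 genes over both sexes, with 753 at that unadjusted level with library quality weights and 720 without. The estimates were small. The median log2 fold change over all genes was -0.0087, 47.1% of genes had a positive estimate, and the middle 90% lay between -0.19 and 0.17. For 98.1% of genes the 95% confidence interval of the difference lay within a 1.5-fold change in either direction, and for 181 genes it reached beyond. From here on, "higher" and "lower" give the sign of an estimate that did not pass the test.

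In CPM, 0 genes (0%) had all 5 SB libraries above all 14 vehicle libraries, and 0 (0%) had all 5 below. After the fitted level of each cohort was taken out, 1 gene (0.0104%) had all 5 SB libraries above the vehicle libraries and 2 (0.0208%) had all 5 below. The first was Alkbh5, an RNA demethylase that removes methyl marks from adenosine. Its CPM was 72.8, 86.4 and 85.8 in SB females 1 to 3 and 84.1 and 83.2 in SB males 1 and 2, against 48.0, 72.7 and 82.0 (lowest, median, highest) in the vehicle mice. The log2 fold change was 0.15 with a standard error (SE) of 0.0654. The other 2 were Med10 and Hmgn2.

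The median of the genes of the drug's own pathway was close to the vehicle level. Of 18 listed genes of the p38 kinase cascade 13 were measured, and 9 were higher and 4 lower, with a median log2 fold change of 0.044 beside -0.0087 over all genes. None reached an unadjusted p under 0.05 in edgeR over both sexes. In males alone, limma voom with quality weights called 1 of the 13 higher and 1 lower, and 1 of the p38 substrates higher. Over all 9636 genes that test called 75 higher and 202 lower in males. The median of the cascade over both sexes was -0.0076 without the 6 far libraries, with 6 genes higher and 7 lower. Mapk12, Mapk13, Map2k6, Map3k6 and Map3k20 were not analysed here.

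Mapk14, which encodes p38 alpha, had 113, 127 and 119 CPM in SB females 1 to 3 and 113 in each SB male, against 99.2, 115 and 122 in the vehicle mice. SB female 2 alone lay above the vehicle range, and the log2 fold change was 0.023 (95% interval -0.084 to 0.13), or -0.0076 without the far libraries. Mapk11, which encodes p38 beta, had 72.6, 87.6 and 80.1 CPM in the SB females and 53.0 and 59.1 in the SB males, against 60.3, 75.2 and 121 in the vehicle mice. Both SB males lay below every vehicle library, male or female, while the SB females lay inside the vehicle range. The log2 fold change of Mapk11 was -0.43 (SE 0.195) in males and -0.071 (SE 0.155) in females, and -0.50 and 0.052 without the far libraries. Over both sexes it was -0.25 (SE 0.125) with an unadjusted p of 0.051, and the edgeR adjusted p was 0.677. The male minus female difference of -0.36 (SE 0.247) did not pass either (edgeR adjusted p 0.968).

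Upstream of p38, Map2k3, a kinase that activates it, had a log2 fold change of -0.14 (SE 0.122) and ranged from 11.3 to 16.2 CPM in SB and from 9.55 to 20.4 in vehicle mice. Map3k5, which encodes the stress-sensing kinase ASK1, stood at 0.11 (SE 0.0735) and Map2k4 at 0.076 (SE 0.0655), or 0.032 and 0.027 without the far libraries. For both the SB libraries lay within the vehicle range. The remaining members, among them Map3k7, Tab1, Tab2 and the Taok kinases, lay between -0.093 and 0.11.

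**Figure D2:**
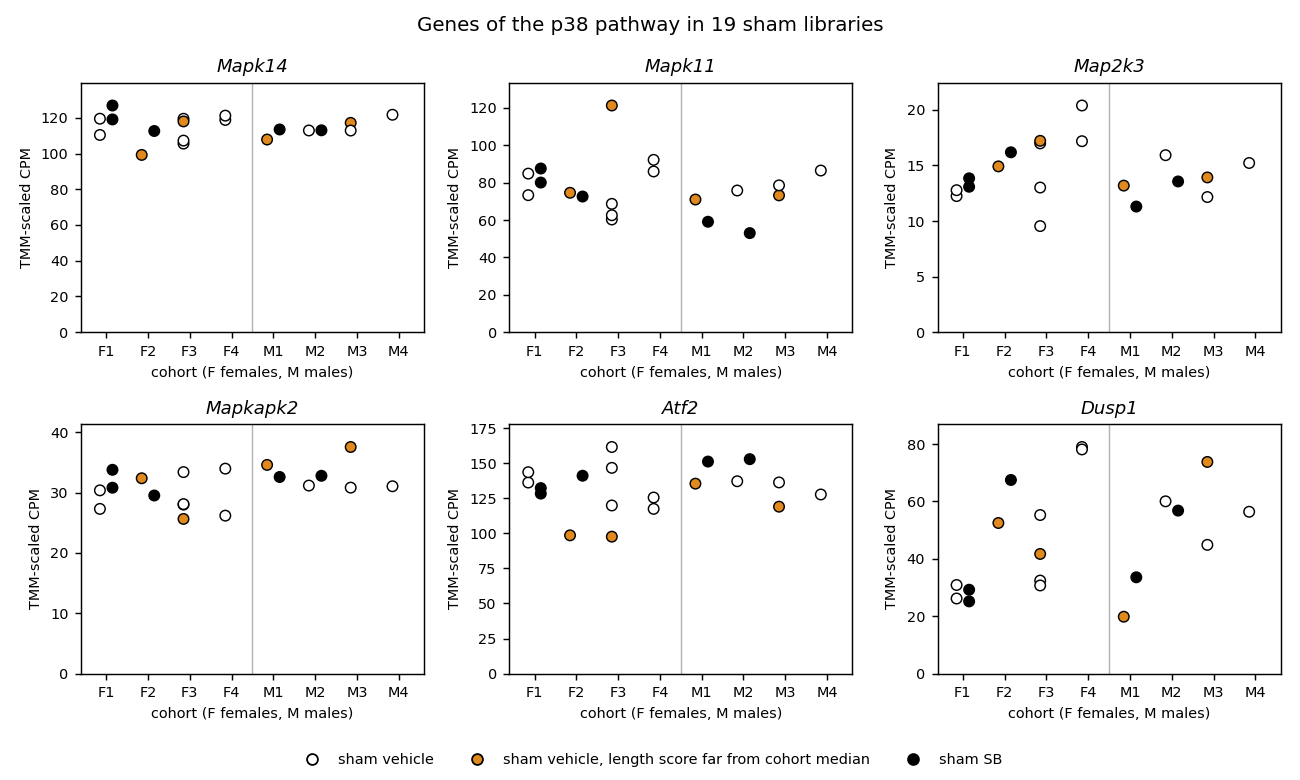
TMM-scaled CPM (y axis, from 0) of 6 genes of the p38 pathway in the 19 sham libraries by cohort (x axis). Filled black points are SB, open and orange points vehicle, orange being libraries of far length score. Mapk14 lies between 99.2 and 127 CPM in all libraries, the 2 SB males are lowest for Mapk11, and Dusp1 differs more between cohorts than between treatments.

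Downstream of p38, 21 of 25 listed substrates were measured, 11 higher and 10 lower, with a median of 0.0098, or -0.00061 without the far libraries. Mapkapk2, the kinase MK2 that carries much of the p38 signal to cytokine mRNAs, had 29.5, 30.8 and 33.8 CPM in SB females and 32.8 and 32.6 in SB males, inside the vehicle range of 25.6 to 37.6. Its log2 fold change was 0.010 (SE 0.0836), or 0.047 without the far libraries. Atf2, a transcription factor that p38 phosphorylates, stood at 0.092 (SE 0.0890), and 0.0041 without the far libraries. The MEF2 factors Mef2d, Mef2a and Mef2c stood at 0.15 (SE 0.0705), 0.13 (SE 0.0764) and 0.062 (SE 0.104). Mef2a stood at 0.036 and Mef2c at -0.00061 without the far libraries. Hnrnpa0, an RNA-binding protein that MK2 phosphorylates, was lower at -0.20 (SE 0.0834). Mef2d and Hnrnpa0 were the 2 of the 21 with an unadjusted p under 0.05. That is 1 higher and 1 lower, beside 3.54% and 3.48% of all genes. Without the far libraries the estimates of Mef2d and Hnrnpa0 were 0.083 and -0.10.

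Of 13 listed phosphatases of the MAP kinases 11 were measured, 7 higher and 4 lower, with a median of 0.011, or -0.00088 without the far libraries. Dusp1 had 67.5, 25.2 and 29.2 CPM in the SB females and 56.8 and 33.6 in the SB males, against 19.8, 48.7 and 79.0 in the vehicle mice. Its level followed the cohort: SB and vehicle mice were both low in F1 and M1 and both high in F2 and M2. The log2 fold change was -0.24 (95% interval -0.83 to 0.35). Dusp26 (-0.15, SE 0.0899, and -0.00088 without the far libraries) and Dusp7 (0.082, SE 0.0676) had the smallest p of the list. The parallel cascades gave medians of 0.066 for 12 JNK genes and 0.046 for 21 ERK genes, and 0.0094 and 0.0058 without the far libraries. Their members of smallest p were Map3k13 (0.27, SE 0.123) and Rps6ka2 (0.20, SE 0.0918), at 0.15 and 0.11 without them.

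The lowest p-values of the whole table belonged to genes that were lower with SB. Med10, a subunit of the Mediator complex that links transcription factors to RNA polymerase II, had 22.9, 19.5 and 20.5 CPM in SB females 1 to 3 and 19.7 and 21.6 in SB males 1 and 2. The vehicle mice had 22.2, 25.9 and 29.4 CPM (lowest, median, highest), so the ranges overlapped only between the highest SB and the lowest vehicle library. Within the 4 cohorts the log2 difference was -0.21 in F1, -0.23 in F2, -0.28 in M1 and -0.17 in M2. The fitted log2 fold change was -0.28 (SE 0.0679, 95% interval -0.42 to -0.14), with an unadjusted p of 1.3e-04 and an edgeR adjusted p of 0.677. It lay between -0.30 and -0.26 with any 1 sham library left out, and was -0.27 without the far libraries.

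Alg14 encodes part of an enzyme in an early step of N-linked glycan synthesis. It was lower with SB in each of the 4 cohorts, by -0.31, -0.26, -0.43 and -0.27 in F1, F2, M1 and M2. It had 9.82, 8.19 and 7.10 CPM in the SB females and 8.15 and 7.63 in the SB males, against 6.96, 10.1 and 11.8 in vehicle mice. The fitted log2 fold change was -0.35 (SE 0.0945). Fancc, a member of the Fanconi anaemia DNA repair complex, had 8.65, 9.52 and 8.90 CPM in SB females and 8.33 and 9.99 in SB males, against 9.56, 10.9 and 15.1, and a log2 fold change of -0.29 (SE 0.0849). For Fancc 4 of the 5 SB libraries lay below every vehicle library. Both estimates were -0.28 without the far libraries.

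Clk4, a kinase of splicing factors, stood at -0.35 (SE 0.107) with and -0.35 without the far libraries. Hmgn2, which encodes a nucleosome-binding protein, had 53.8, 44.7 and 44.0 CPM in the SB females and 49.7 and 51.5 in the SB males against 46.7, 55.9 and 75.4, and a log2 fold change of -0.21 (SE 0.0661). Utp11, which acts in the assembly of the small ribosomal subunit, stood at -0.29 (SE 0.0776), Nudt16, a nucleotide hydrolase, at -0.36 (SE 0.109) and Serf2 at -0.21 (SE 0.0644). These last 3 and Hmgn2 were closer to 0 without the far libraries, at -0.20, -0.23, -0.14 and -0.15. All had an edgeR adjusted p of 0.677.

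Of the 8 genes of smallest p among those higher with SB, all but Arhgef3 had an estimate lower by more than 1.5 times without the far libraries. Disp2, a membrane protein of the Dispatched family, had 395, 418 and 441 CPM in SB females and 446 and 464 in SB males, against 294, 367 and 451 in vehicle mice. The SB mean was above the vehicle mean in each of the 4 cohorts, by 0.054, 0.23, 0.46 and 0.056 in F1, F2, M1 and M2. The fitted log2 fold change was 0.20 (SE 0.0676), and 0.12 without the far libraries.

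Mtor, the kinase of the nutrient-sensing mTOR complexes, had 146, 156 and 188 CPM in SB females and 184 and 187 in SB males, against 107, 147 and 174. Its log2 difference was 0.79 in M1 and 0.33 in F2, the cohorts whose only vehicle library is a far one, but 0.078 in M2 and -0.0053 in F1. The fitted value of 0.25 (SE 0.0823) was 0.11 without the far libraries. Plxna4, a semaphorin receptor of axons, and Clec16a, a regulator of autophagy, stood at 0.23 and 0.18, and at 0.092 and 0.078 when these libraries were left out. Arhgef3, a guanine nucleotide exchange factor, stood at 0.23 (SE 0.0762) and at 0.20 without them. Tm9sf4 and Rapgef1 stood at 0.17 and 0.20, and at 0.087 and 0.13 without them.

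**Figure D3:**
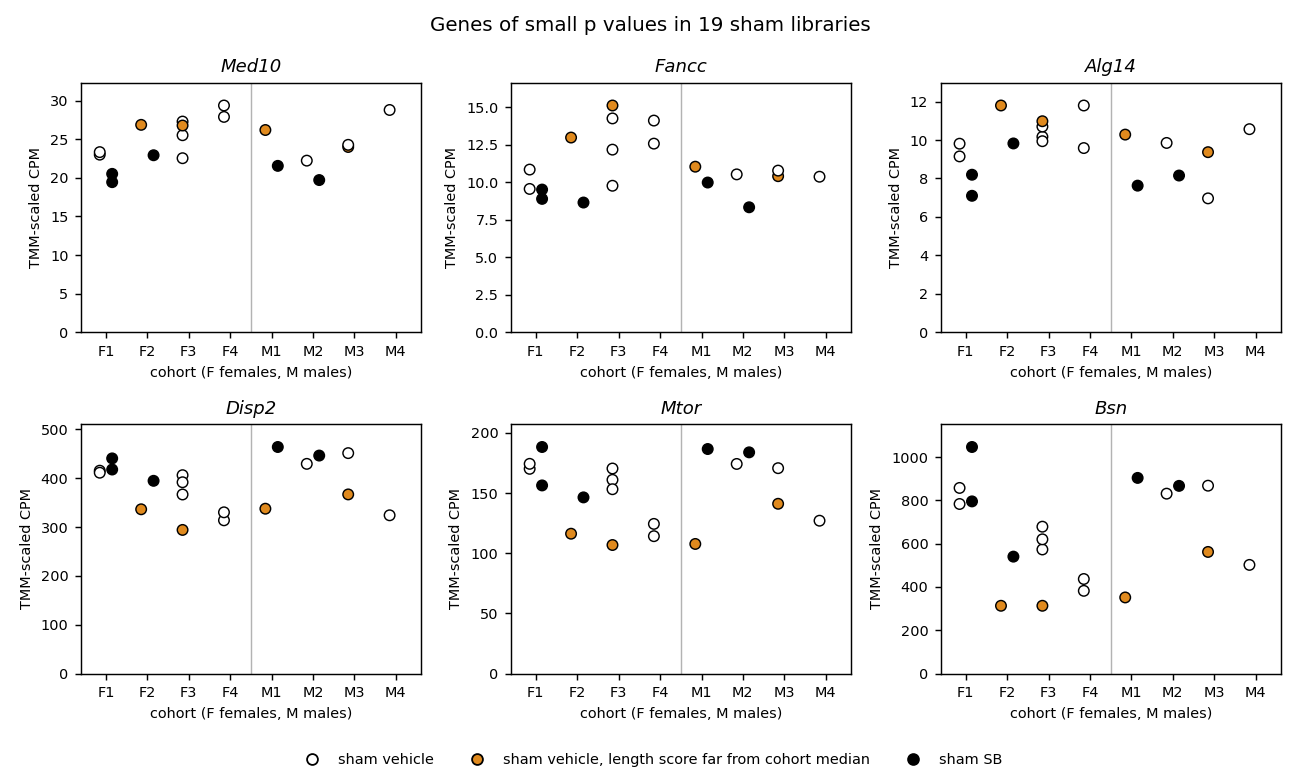
TMM-scaled CPM (y axis, from 0) by cohort (x axis) of 3 genes lower with SB (Med10, Fancc, Alg14) and 3 higher (Disp2, Mtor, Bsn), with SB filled black, vehicle open, and vehicle libraries of far length score orange. Med10 is lower in the SB mice of all 4 cohorts, whereas Mtor and Bsn differ most in F2 and M1, where the vehicle mouse is a far library.

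The cohorts differed in which genes set the SB mice apart. When SB was compared with vehicle inside each cohort, the spread (SD) of the log2 difference over genes was 0.165 in F1, with 2 mice a group, and 0.186 in M2. It was 0.412 in F2 and 0.335 in M1, where the vehicle mouse is a far library. Genes past a 1.5-fold difference numbered 15 in F1, 1342 in F2, 738 in M1 and 100 in M2. Across the 9636 genes, the differences of F1 correlated with those of F2 at r = -0.57 and with those of M2 at r = -0.43, and those of F2, M1 and M2 with one another at 0.20 to 0.32. These cohorts share no library, but within a cohort all genes share the same 2 to 4 libraries. The mean log2 CPM of the SB mice was above that of the vehicle mice in all 4 cohorts for 444 genes (4.61%) and below it in all 4 for 415 (4.31%). Of the first principal component of the 19 libraries, 51.5% of the variance followed the cohort, which includes sex, and 6.55% the treatment beyond it. The cohort labels are many for 19 libraries, so unrelated labels would also take up part of the variance, and neither share was tested.

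Neither sex alone gave a called gene in edgeR. In females 0 genes passed (smallest adjusted p 0.986, 352 at an unadjusted p under 0.05), in males 0 (0.787, 483), and for the male minus female difference 0 (0.968, 229). DESeq2 called 0 in all 3, with 376, 517 and 246 at an unadjusted p under 0.05. limma voom with quality weights gave another answer in males, with 277 genes called, 75 higher and 202 lower, and 86 for the sex difference, but 0 in females. It weighted both SB males at 2.93 and 2.94, and the male vehicle libraries between 0.179 and 2.85. The lowest of these vehicle weights, 0.179 and 0.203, were those of the far libraries, vehicle males 2 and 4. Without the 6 far libraries edgeR called 0 genes in males. Without quality weights voom called 0 in males (517 at an unadjusted p under 0.05) and 0 for the sex difference (229). The female and male estimates correlated over the 9636 genes at r = 0.15, from mice that share no library.

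In females the smallest p-values among higher genes were those of Prag1, Rin1, Mdga1 and Cpne4. Prag1, a cytoplasmic pseudokinase, had 47.1, 50.1 and 75.0 CPM in the SB females and stood at 0.56 (SE 0.165) in females against 0.068 (SE 0.21) in males, and at 0.45 and 0.026 without the far libraries. In males they were Adgrl2, Scn8a, Phf20 and Upp2 on the higher side and Utp11, Serf2, Pick1 and Tsr3 on the lower. Adgrl2, which encodes the adhesion receptor latrophilin 2, stood at 0.46 (SE 0.141) in males and -0.12 (SE 0.115) in females, and Scn8a, a neuronal sodium channel, at 0.32 and -0.00047. Adgrl2 stood at 0.32 and -0.15 and Scn8a at 0.14 and -0.043 without the far libraries.

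The sex difference had its smallest p for Zranb3, a DNA repair translocase, which stood at 0.50 in males and -0.27 in females, a difference of 0.77 (SE 0.219, edgeR adjusted p 0.968). Nptx2, a neuronal pentraxin induced by activity, had 81.1, 69.3 and 95.1 CPM in SB females and 49.0 and 38.3 in SB males, against 32.3, 54.5 and 79.9 in vehicle mice. It was higher with SB in both female cohorts and lower in both male ones, with a sex difference of -0.81 (SE 0.248). Cdkn1a, the cell cycle inhibitor p21, followed the same order, with 50.2, 30.8 and 43.7 CPM in the females and 21.9 and 15.0 in the males and a difference of -0.75 (SE 0.248). Neither passed the test.

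No glial or immune gene of the lists passed in edgeR over both sexes. In males, limma voom with quality weights called 1 cytokine and NF-kB gene lower, 1 interferon response gene higher and 1 lower, and 1 antigen presentation gene lower. Over all 9636 genes it called 75 higher and 202 lower. Of 23 genes of homeostatic microglia 18 were measured, 9 higher and 9 lower, with a median of -0.0070, or 0.033 and 12 higher without the far libraries. Cx3cr1, the fractalkine receptor of microglia, had 42.6, 51.2 and 47.4 CPM in SB females and 51.9 and 53.5 in SB males, within the vehicle range of 42.8 to 54.1 but for SB female 1. Its log2 fold change was -0.041 (95% interval -0.21 to 0.13). Csf1r, the receptor on which microglia depend to survive, was the member of smallest p. It had 78.2, 99.9 and 120 CPM in SB females and 107 and 94.3 in SB males against 59.7, 85.2 and 106, a log2 fold change of 0.19 (SE 0.0817), and 0.12 without the far libraries. In bulk tissue a change in the number of cells of a type cannot be told apart from a change in RNA per cell.

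Of 24 genes of disease-associated microglia 15 were measured, 2 higher and 13 lower, with a median of -0.072. Without the far libraries it was -0.0032, with 7 higher. The iron store Fth1 had the smallest p (-0.18, SE 0.104, and -0.052 without them). The 13 measured of 31 cytokine and NF-kB genes had a median of 0.0028 (-0.0051 without the far libraries), and the cytokines Il1b, Tnf and Il6, which p38 is known to control, were not analysed here. The interferon response (9 of 28 measured) had a median of -0.043, with Irf9 at -0.28 (SE 0.146). The 5 measured antigen presentation genes were all lower, at a median of -0.14 that was -0.058 without the far libraries. The 9 measured complement genes had a median of 0.031, or -0.0036 without the far libraries, and C1qa, C1qb and C1qc stood between -0.059 and 0.031.

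Of 20 astrocyte genes 10 were higher and 10 lower. Aqp4, the astrocytic water channel, stood at 0.22 (SE 0.0999), and at 0.14 without the far libraries. Reactive astrocyte genes were measured for 6 of 23, 5 of them higher, with a median of 0.080 that was 0.15 without the far libraries. Gfap, the filament of reactive astrocytes, had 171, 175 and 177 CPM in SB females and 160 and 153 in SB males against 104, 151 and 275 in vehicle mice, and a log2 fold change of 0.043 (SE 0.148), or 0.12 without the far libraries. Its highest value belonged to the vehicle mouse of F2. Of the markers of cells outside the cortex, 0 of 7 red blood cell, 1 of 12 leukocyte, 2 of 14 choroid plexus and 4 of 12 meningeal genes were in the table. Enpp2, made by choroid plexus and oligodendrocytes, stood at 2841 CPM in vehicle female 4, of cohort F3, and at 294 to 360 CPM in the 5 SB mice.

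Nearly all myelin genes were lower with SB, by most in cohort F2. All 25 listed genes were measured, and 24 were lower, with a median of -0.15 (-0.23 in females, -0.063 in males). Without the far libraries the order of the sexes was the opposite, with -0.072 in females (14 of 25 lower) and -0.20 in males (23 lower), and -0.14 over both (24 lower). Mbp, the myelin basic protein, had 3142, 3390 and 3467 CPM in SB females and 2706 and 2685 in SB males, against 1387, 2879 and 9335 in vehicle mice. The value of 9335 is that of vehicle female 1, the only one of F2. Mobp was likewise at 3350 CPM in that mouse and at 902 to 1421 CPM in the SB mice. The mean difference over the list was 0.23 in F1, -1.07 in F2, -0.085 in M1 and -0.091 in M2. Without vehicle female 1 or SB female 1, the 2 sham mice of F2, the median was -0.062 or -0.063, and without any other 1 sham library it lay between -0.20 and -0.12. Vehicle female 1 was also lowest for upper cortical layer genes, of which 12 of 15 were higher with SB at a median of 0.14, with 0.83 in F2 and 0.053, 0.25 and 0.10 in F1, M1 and M2. Their median was 0.066 without the far libraries. Cux2, a factor of upper-layer neurons, had 131, 179 and 186 CPM in SB females and 171 and 201 in SB males, against 64.4, 148 and 233.

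Ribosomal and respiratory genes, whose transcripts are short, were lower, and synaptic genes higher. When the far libraries were left out, the first were mostly higher over both sexes and in females, but near evenly split in males. The second were still mostly higher over both sexes and in males, with smaller medians, but nearer an even split in females. All 76 measured genes of cytosolic ribosomal proteins were lower with SB, at a median of -0.13, and 7 of them had an unadjusted p under 0.05 beside 3.48% of all genes. Without the 6 far libraries 61 of the 76 were higher, at a median of 0.046. By sex, 59 were then higher in females and 37 in males, at medians of 0.096 and -0.0016. Of 62 measured genes of oxidative phosphorylation 60 were lower at a median of -0.13. Without those libraries 42 were higher at 0.034 (44 in females alone and 33 in males alone). The ribosomal difference was 0.15 in F1, -0.51 in F2, -0.50 in M1 and -0.043 in M2. Rpl30 had 107, 80.0 and 90.8 CPM in SB females and 82.2 and 84.6 in SB males, against 143 in the vehicle mouse of F2, 154 in that of M1 and 79.1 to 91.0 in the 3 other vehicle mice of these cohorts.

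On the higher side stood 21 of 23 genes of the postsynaptic scaffold (median 0.10), 20 of 23 glutamate receptor genes (0.091), 34 of 39 potassium channel genes (0.082) and 23 of 31 presynaptic genes (0.070). Without the far libraries 16 of 23, 13 of 23, 27 of 39 and 25 of 31 were higher, with medians of 0.023, 0.015, 0.039 and 0.037. By sex, 11, 12, 21 and 18 were higher in females without the far libraries, and 13, 15, 28 and 26 in males. Bsn, which encodes the active zone protein bassoon, had 540, 795 and 1046 CPM in SB females and 867 and 904 in SB males against 313, 568 and 868. Its log2 fold change of 0.39 (SE 0.142) was 0.13 without them. Shank3 and Dlgap2, scaffold genes of excitatory synapses, went from 0.25 and 0.32 to 0.077 and 0.10. Over 9550 genes with a known transcript length, the log2 fold change followed that length at a Spearman rank correlation of 0.32, and of -0.0071 without the far libraries. By sex the correlation was 0.12 in females and 0.33 in males, and -0.14 and 0.14 without the far libraries. The -0.0071 thus stands for the mean of estimates with opposite trends in the sexes. The median length was 630 bases for the ribosomal genes and 2878 for the postsynaptic ones.

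Long noncoding RNAs, many of which are kept in the nucleus, had the lowest median of the lists with at least 5 measured genes. Of 17 listed 12 were measured, 11 lower and 1 higher, with a median of -0.27 that was -0.26 without the far libraries and between -0.32 and -0.19 with any 1 sham library left out. The median was -0.13 in females and -0.30 in males, and -0.064 and -0.37 without the far libraries. Inside the cohorts the mean difference over the list was -0.037 in F1 and 0.047 in F2, against -0.40 in M1 and -0.44 in M2. No member was called by edgeR. Over both sexes its unadjusted p was under 0.05 for 4 lower and 1 higher, beside 3.48% and 3.54% of all genes. In males limma voom with quality weights called 5 of the 12 lower, more than in any other list, beside 202 of all 9636 genes. Malat1, an abundant RNA of nuclear speckles, had 2395, 2121 and 1290 CPM in SB females 1 to 3 and 1174 and 1540 in SB males, against 1388, 2099 and 3824 in vehicle mice. SB female 3 lay below every vehicle mouse, SB female 2 above both vehicle mice of the same cohort F1, and SB female 1 above that of F2, so that the female cohort differences were 0.020 and 0.13. Both SB males lay below the vehicle mouse of their cohort, by -0.65 in M1 and -0.80 in M2. The fitted log2 fold change, which also draws on the vehicle mice of the other cohorts, was -0.42 (SE 0.163, edgeR adjusted p 0.677), with -0.28 in females and -0.57 in males (-0.18 and -0.61 without the far libraries).

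Meg3, an imprinted noncoding RNA of neurons, had 7126, 5600 and 3223 CPM in SB females and 3123 and 4028 in SB males, against 3386, 6781 and 10993. Its differences were -0.0073 and 0.032 in F1 and F2 and -0.75 and -0.86 in M1 and M2. Mirg, transcribed from the same imprinted region, stood at -0.72 (SE 0.269) in males and -0.033 (SE 0.21) in females, and at -0.83 and 0.19 without the far libraries. For Mirg the male minus female difference was -0.69 (SE 0.338), with an edgeR adjusted p of 0.968. Neat1, Snhg11, Kcnq1ot1 and Gas5 stood at -0.34, -0.29, -0.29 and -0.26, and Peg13 alone was higher at 0.16 (0.093 without the far libraries). The sources used here do not state whether counting used strand, so reads of an overlapping gene on the other strand could be included. In the injured mice the list's median with SB was -0.023.

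The sign of the median of immediate early genes, which neurons switch on within minutes of activity, depended on the libraries in the fit. Of 20 listed 14 were measured, 3 higher and 11 lower with SB at a median of -0.13, with 8 of 14 higher in females (0.056) and 0 of 14 in males (-0.29). Without the far libraries the medians were -0.10 over both sexes, 0.10 in females and -0.48 in males. In a fit of the 19 sham libraries alone the median was 0.23. Inside the cohorts the mean difference was 0.31 in F1, 0.16 in F2, 0.36 in M1 and -0.078 in M2. Junb had 72.6, 36.8 and 51.8 CPM in SB females and 95.5 and 56.2 in SB males, against 30.5, 74.5 and 168, and a log2 fold change of -0.31 (SE 0.363). Egr1 stood at -0.025 (SE 0.174), or -0.096 without the far libraries. Of 14 measured glucocorticoid response genes 12 were higher in females (median 0.11) and 4 in males (-0.11), with -0.036 over both. Without the far libraries the medians were 0.27, -0.065 and 0.040. Sgk1, a kinase induced by corticosterone, had 121, 121 and 106 CPM in SB females and 103 and 94.7 in SB males, inside the vehicle range of 41.1 to 184.

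**Figure D4:**
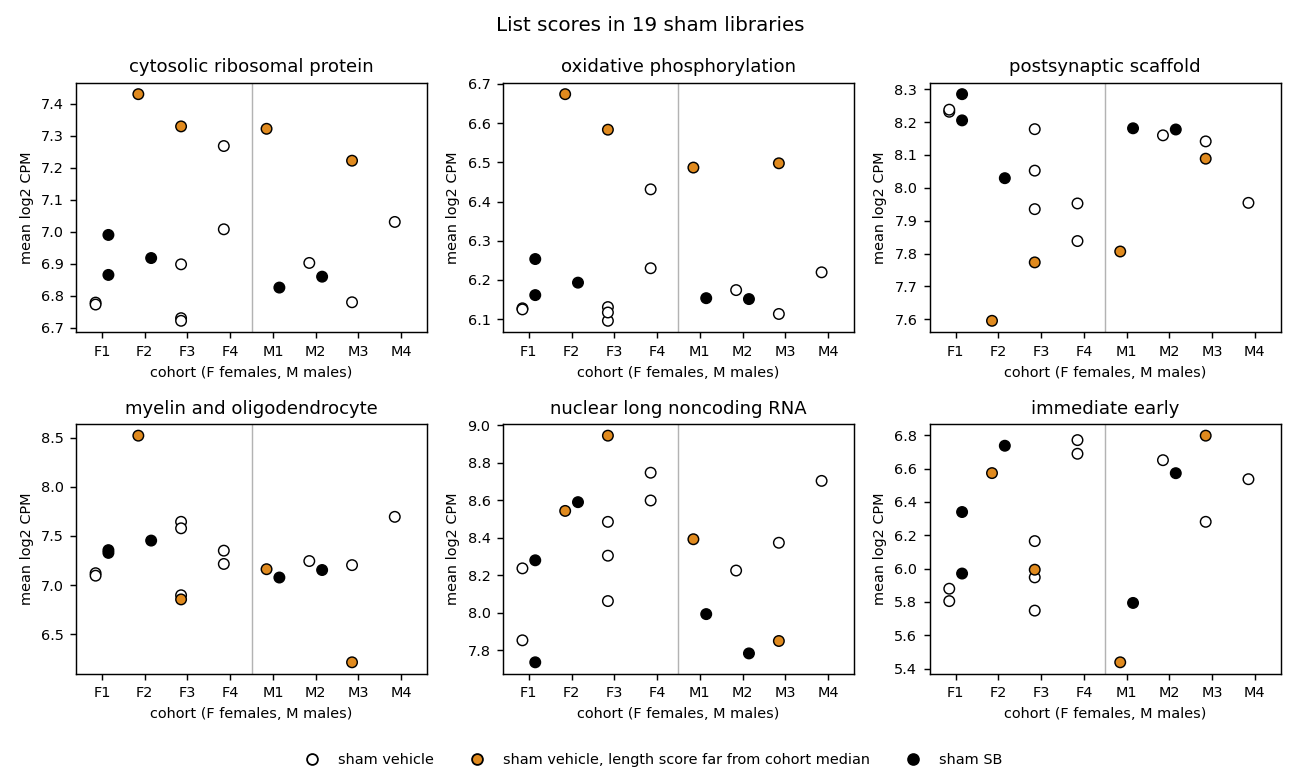
Mean log2 CPM (y axis) of 6 gene lists in the 19 sham libraries by cohort (x axis), with SB filled black, vehicle open, and vehicle libraries of far length score orange. The 4 orange points are high for ribosomal and respiratory genes, the vehicle mouse of F2 is highest for myelin genes at 8.52, and the SB mice of M1 and M2 lie below the vehicle mouse of their cohort for noncoding RNAs.

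Other lists held few genes of low p. Inhibitory neuron genes were higher for 14 of 18 (median 0.053, and 0.080 without the far libraries), with Reln at 0.31 (SE 0.142, and 0.11 without them). Excitatory neuron genes were higher for 13 of 16 (0.065, and 0.041 without them), with Camk2a at 0.20 (SE 0.106, and 0.061 without them). Clock genes were higher for 15 of 20 at a median of 0.083 and 0.043 without the far libraries. Cholesterol genes (0.021), glycolysis genes (0.0031) and endothelial genes (0.057) stood at 0.032, 0.053 and 0.00059 without those libraries. The striatal genes, a check on the dissection, differed by -0.40 in F1, 0.62 in F2, 0.27 in M1 and 0.72 in M2.

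**Figure D5:**
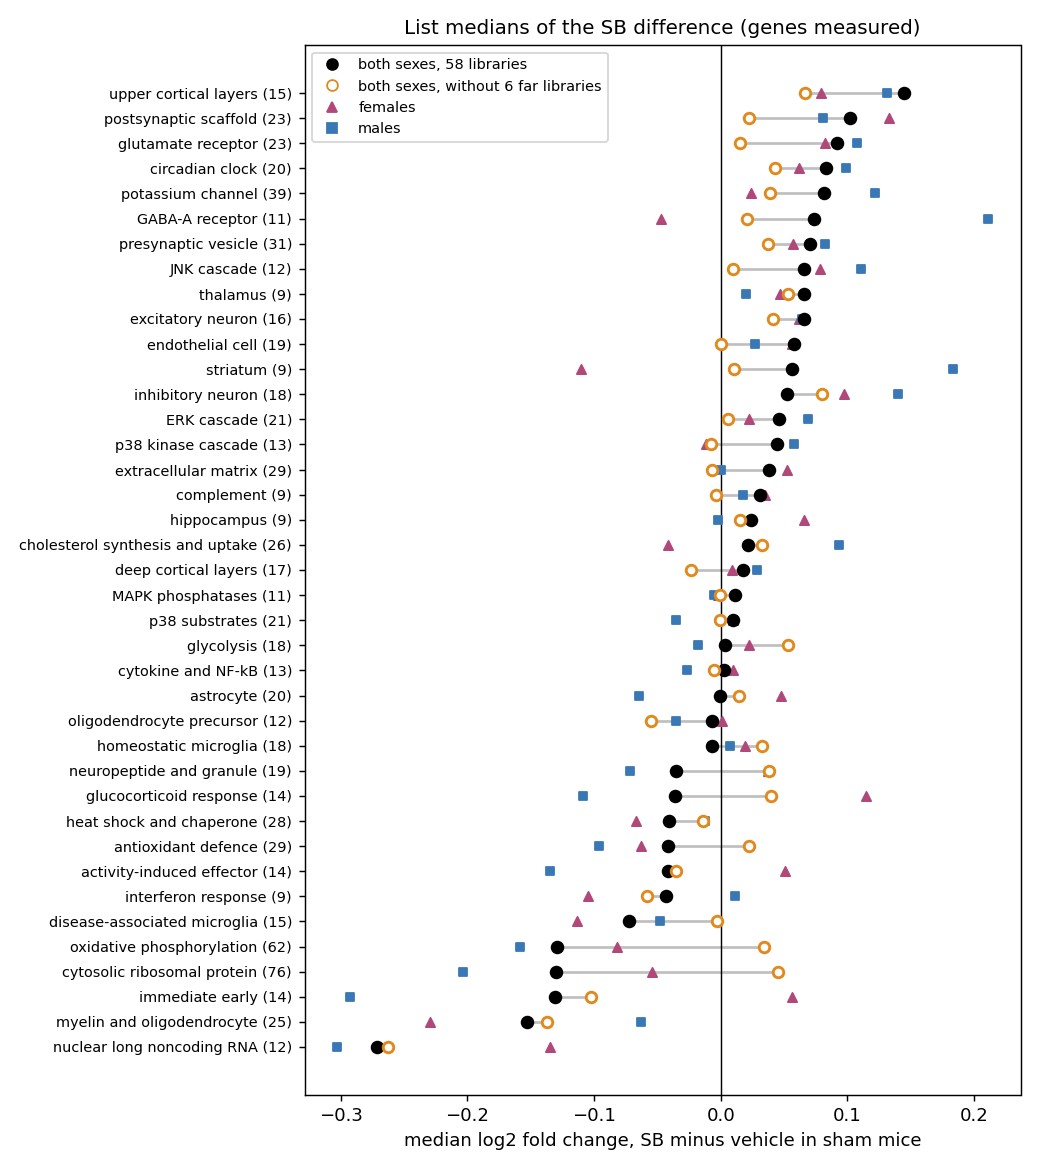
Median log2 fold change of SB minus vehicle (x axis) for the 39 lists with at least 9 measured genes (y axis, number measured in parentheses). Black points give both sexes, orange rings both sexes without the 6 far libraries, triangles females and squares males. Ribosomal and respiratory genes cross 0 when the far libraries are left out, whereas the noncoding RNAs go from -0.27 to -0.26.

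The response to SB in sham mice was set against that in injured mice. For the injured minus sham difference of the SB effect 0 genes passed in edgeR (smallest adjusted p 0.999), with 133 at an unadjusted p under 0.05, 108 of them more positive in injured mice. DESeq2 called 0 (144), and voom 0 with quality weights (633) and 0 without (127). Med10 had the smallest p on that side, with -0.28 in sham and -0.030 in injured mice, a difference of 0.25 (SE 0.0777). Alg14 stood at -0.35 in sham and -0.0018 in injured mice (difference 0.34, SE 0.108), and Arhgef3 at 0.23 and -0.0060 (difference -0.23, SE 0.088). All had an edgeR adjusted p of 0.999. Trim45, a ubiquitin ligase, went the other way, at 0.23 in sham and -0.093 in injured mice. Myelin genes were lower in both settings, with medians of -0.15 in sham and -0.31 in injured mice. The estimates in sham mice from the 4 cohorts with sham SB, 10 libraries, and those in injured mice from the other 4 cohorts, 21 libraries, correlated at r = 0.32 over the 9636 genes. These comparisons share no library, and genes are not independent of one another. Far libraries stood on the vehicle side of both: vehicle female 1 and vehicle male 4 in sham mice, and injured vehicle female 6 of F3. In the fit of all 58 libraries, the log2 fold change followed transcript length at a Spearman rank correlation of 0.32 in sham and 0.20 in injured mice. The part of length in the r of 0.32 was not tested.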

How the data were processed

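Poly(A) RNA libraries were made with a directional kit, per the labels' protocols. The authors deposited raw read counts per gene, made with STAR and featureCounts on GRCm39/mm39 (DESeq2 is named too), per the submitters' processing notes. Versions and the strand setting: not given in the sources used here. The smallest deposited count was 101, so genes of low count were left out by a rule not given. The test was edgeR 4.0.16 under R 4.3.3 (TMM, robust quasi-likelihood) on all 58 libraries, with 8 groups and the cohort within sex as terms (14 coefficients, 44 residual degrees of freedom). "Both sexes" is the mean of the female and male difference. P-values were adjusted over 9636 genes by Benjamini-Hochberg at 0.05, and the biological coefficient of variation was 0.123. No libraries of a group agreed within counting error: chi-square over its degrees of freedom was at least 15.1. DESeq2 1.42.0 and limma 3.58.1 voom were alternatives, as were other normalizations, filters, cohort terms and library sets. Transcript lengths, the median per gene, came from GENCODE vM21 and covered 99.1% of genes. The script was tested on simulated data. The genes, lists and tests were chosen with earlier results of these data known, and the fits without the 6 far libraries, voom without weights and the correlation between separate cohorts after these results were seen. Named genes were the 8 of smallest p per direction over both sexes, 4 per direction in the other comparisons, those whose groups did not overlap after cohort removal, the 3 of smallest p and the most abundant of each list, and 14 set genes, of which 10 were measured. Some genes chosen by this rule are not reported here. Other list members in the text (Tab1, Tab2, Map3k7, the C1q genes, Neat1, Snhg11, Kcnq1ot1, Gas5) were named after their values were seen. No genome of the build used was at hand, so no coordinates are given.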

Additional observations from a re-analysis of the deposited data

Results flagged for a closer look

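Library scores of 16 lists, the length score and the 10 measured set genes were looked through for a vehicle library that stands apart from the others of its sex, in 54 groups of 5 or 9 libraries. The gap to the next library was divided by the whole range, and 8 passed the 95% limit of Dixon's test. Chance flags about 1 in 20 groups where the libraries share a common level and the groups are independent. Here cohort levels were left in, and Mobp, Gfap and Cx3cr1 also belong to lists that were looked through. That rate is therefore no measure for the 8. Vehicle female 1, of cohort F2, stood apart in 5: highest for the myelin list (ratio 0.526, 8.52 against 7.64 in the next library on the log2 CPM scale), for Mobp (0.614, 3350 against 1823 CPM) and for Gfap (0.626, 275 against 181 CPM), and lowest for the upper cortical layer list (0.544) and the p38 kinase cascade list (0.497). Vehicle male 5, of cohort M3, was lowest for the homeostatic microglia list (0.850, 4.88 against 5.12) and for Cx3cr1 (0.736, 46.3 against 52.1 CPM). Vehicle male 1, of cohort M4, was lowest for the p38 substrate list (0.779, 5.61 against 5.68). No list had all SB females on one side of the vehicle mice of their cohort and all SB males on the other.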

How the results depend on the processing

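The count of called genes was 0 over both sexes, in females and for the injured minus sham difference under all alternatives run, and 0 in males and for the sex difference under all but limma voom with quality weights, which called 277 in males and 86 for the sex difference. With any 1 sham library left out the counts stayed at 0. Genes at an unadjusted p under 0.05 over both sexes then numbered between 149 (without SB male 2) and 965 (without vehicle male 5), against 676, and were 221 without vehicle male 4, 1227 without the cohort term, 122 in the 19 sham libraries alone and 353 without the 6 far libraries. Without the 6 far libraries, females had 1062 genes at an unadjusted p under 0.05 (352 with them) and males 545 (483 with them). The sex difference had 1246 (229 with them). The smallest edgeR adjusted p was then 0.446 in females, 0.878 in males and 0.379 for the sex difference. With the replicate number as a block in place of the cohort, 0 genes were called over both sexes and 745 had an unadjusted p under 0.05. Deviations from the group mean of same-numbered SB and vehicle libraries correlated at -0.43 to 0.20 over 5 pairs. The cohort was left in these deviations, so they cannot decide whether the numbers pair the samples. SB female 3, SB male 1 and SB male 2 stood in another cohort than the vehicle mouse of the same number. List medians moved by 1 SD or more of the vehicle libraries' scores about their cohort level, far libraries included, in 8 cases, and by less in 1252. The 8 were immediate early genes (0.23 in the sham libraries alone and 0.24 in the 10 of the SB cohorts, against -0.13), interferon genes (-0.15 and -0.14 in these, and -0.16 without SB male 1, against -0.043), striatal genes (0.36 without the cohort term), thalamic genes (-0.019 under the block) and p38 cascade genes (-0.0076 without the far libraries). This limit is wide and lets changes of sign pass. Ribosomal genes went from -0.13 to 0.046 without the far libraries (SD 0.21) and respiratory genes from -0.13 to 0.034 (SD 0.18), and both count as within it. The 5 SB libraries limit the precision: in males alone the interval of 1588 genes reached beyond 1.5-fold.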
